A study of Mus musculus with 28 samples.

Results

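Tumours that arose in mice with oncogenic PIK3CA targeted to basal mammary cells were compared with the mutant basal cells of such mice, on 5 of the 28 arrays of the series. The tumour group held 3 arrays of sorted tumour cells, called K5-PIK tumours here. The reference group held 2 arrays of YFP-positive cells of the basal gate 10 months after tamoxifen, called K5-PIK basal cells. Both came from K5CREERT2/PIK3CA-H1047R/RosaYFP females, in which tamoxifen (3 injections of 5 mg, 1 every 3 days, begun at 4 to 5 weeks of age) switches on the mutant kinase and the YFP reporter in cells with an active keratin 5 promoter. The labels give no time, gate or YFP status for the tumours and no strain, and whether each replicate came from its own animal is not stated, so p-values measure the spread between these samples. All 28 arrays share 1 estimate of the spread, including p53-deleted K8-PIKp53 tumours and K8-PIK basal-gate cells at 8 weeks (2 arrays each), which are not described. Other groups stand beside the K5-PIK tumours and basal cells where stated. These were K5-PIK luminal cells (YFP-positive cells of the luminal gate in the same kind of mice, 10 months, 2 arrays), normal YFP basal cells of K5CREERT2/RosaYFP mice and normal YFP luminal cells of K8CREERT2/RosaYFP mice (2 arrays each at 8 weeks, and at 10 months), and, from K8CREERT2/PIK3CA-H1047R/RosaYFP mice, K8-PIK tumours (7 arrays) and K8-PIK luminal cells (8 weeks, 2 arrays).

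The mammary duct has an inner luminal layer, which makes milk and carries the hormone receptors, and an outer basal or myoepithelial layer, which contracts, expresses keratins 5 and 14 and the transcription factor p63, and rests on the basement membrane. PIK3CA encodes the catalytic subunit of PI3-kinase, which makes the lipid that recruits AKT to the membrane. The H1047R change makes the enzyme active without growth factor. The study asked how this oncogene alters the identity of the lineage in which it is switched on, and the present comparison asks how far tumours of basal-targeted mice differ from mutant basal cells that had not been taken from a tumour.

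The deposited values were log2 expression, so a difference of 1 is a 2-fold change. Of 13663 genes tested, 2361 (17.3%) had a limma p under 0.05 after Benjamini-Hochberg adjustment. Such genes are termed called, and adjusted p always refers to this test. The tumours were higher for 1076 (7.88%) and lower for 1285 (9.4%), and the median difference over all genes was -0.01. The difference reached 2-fold for 1386 called genes (10.1%), 662 higher (4.85%) and 724 lower (5.3%), and 4-fold for 223 higher and 171 lower. The 3 tumour arrays and the 2 basal arrays did not overlap for 2347 of the called genes. Over all genes tested, called or not, the groups failed to overlap with tumours higher for 22.8% and with tumours lower for 24.0%. The count of called genes was 930 without basal array 1 and 1166 without basal array 2, and it lay between 1749 and 1975 without 1 of the tumour arrays. The bulk RNA of a sorted population cannot tell fewer cells of a type from less RNA per cell.

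**Figure D1:**
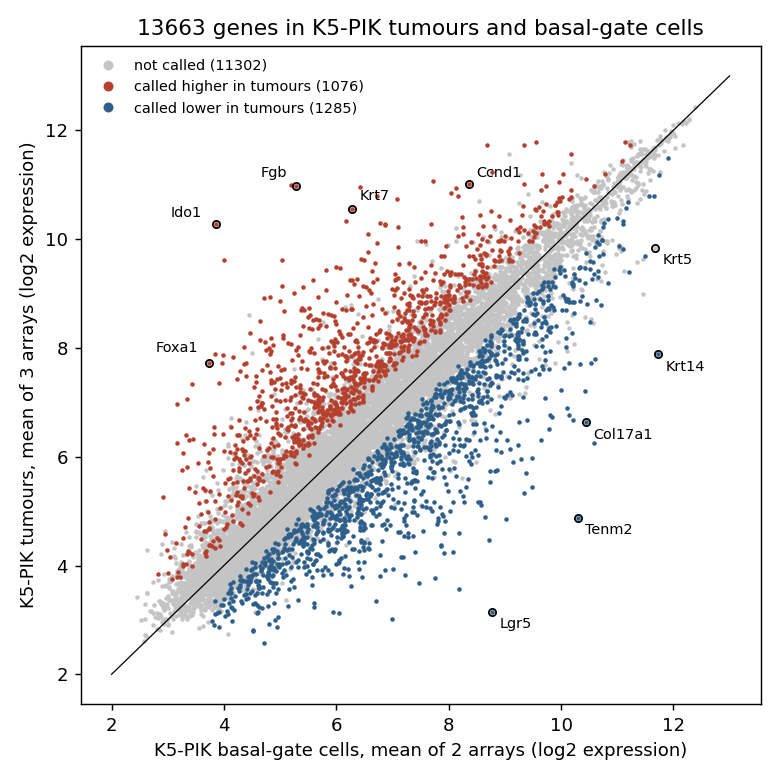
Mean log2 expression of each gene over the 3 K5-PIK tumour arrays (vertical axis) against the mean over the 2 K5-PIK basal arrays (horizontal axis), with called genes coloured and the line of equal level in black. Lgr5 lies farthest below the line and Ido1 farthest above it. Krt5 lies below the line and was not called.

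Genes of the basal layer were lower in the tumours. Of 14 basal epithelial genes tested, 8 fell, none rose, and the median difference was -1.82. Krt14 (Entrez Gene 16664), the keratin that pairs with keratin 5, was at 7.57, 7.04 and 9.04 in the tumours and at 11.74 and 11.72 in the basal cells. Every tumour lay below both basal arrays, tumour 3 least so, and Krt14 fell by 3.85 (SE 0.70, adjusted p = 0.000972). Trp63 (22061), which encodes the basal master regulator p63, was at 7.31, 6.92 and 7.43 against 9.68 and 10.32. It fell by 2.78 (SE 0.77, adjusted p = 0.0172), a call that was lost without basal array 1 (adjusted p = 0.0667) or basal array 2 (adjusted p = 0.130). Cdh3, or P-cadherin, fell by 3.50, the secreted glycoprotein gene Dkk3 by 3.99, and Snai2, a transcriptional repressor of luminal genes, by 1.79. Ngfr and Egfr fell by 1.68 and 1.34, and the Notch ligand gene Dll1 by 2.45. All of these but Trp63 and Egfr were called without each of the 5 arrays in turn, and Egfr was not without basal array 1 (adjusted p = 0.0629).

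Keratin 5 itself, whose promoter drives the Cre, did not pass the test. Krt5 was at 9.93, 9.56 and 10.03 in the tumours and at 11.55 and 11.81 in the basal cells, so the groups were apart by more than their own ranges. The difference was -1.84 with an SE of 0.92 (adjusted p = 0.182), where the SE rests on the spread of all 11 groups and the 7 K8-PIK tumours ran from 6.86 to 11.94. Fitted on the 5 arrays alone the adjusted p was 0.0024, and on the 11 arrays of K5CREERT2 mice 0.000164. The tumours' Krt5 level was above that of the K5-PIK luminal cells, which were at 8.66 and 8.69.

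The contractile genes of myoepithelium showed the same split between settings. All 14 tested had negative differences, with a median of -1.42, and 7 fell: Cnn1 (calponin, by 2.18), Synm (the intermediate filament protein synemin, by 2.00), Tpm2 and Tpm1 (tropomyosins, by 1.93 and 0.78), Mrvi1 (by 1.35), Oxtr (the oxytocin receptor, by 1.12) and Lmod1 (leiomodin, by 0.97). Acta2, smooth muscle actin, was at 9.85, 9.10 and 9.78 against 11.36 and 11.35. Its difference of -1.78 (SE 0.81, adjusted p = 0.139) was not called, although the groups did not overlap, and it was called in the fits on 5 arrays (adjusted p = 0.00533) and on 11 arrays (adjusted p = 0.00143), and with the mean of its probe sets (-1.18, adjusted p = 0.0341). In those fits 11 and 13 of the 14 genes were lower. Without basal array 1 or 2 the count was 4 and 2, and without tumour 2 or 3 it was 3 and 4. Synm alone of the 7 stayed called without each array.

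Some genes of attachment to the basement membrane were lower too. Among 9 components of the hemidesmosome and its ligand laminin-332, 5 fell and none rose (median -1.21). Col17a1, a transmembrane collagen of the hemidesmosome, was at 6.39, 6.34 and 7.15 in tumours and at 10.39 and 10.50 in basal cells, a fall of 3.81 (adjusted p = 0.00628; 0.0505 without basal array 1). Lamb3, a chain of laminin-332, fell by 2.81, the laminin receptor subunits Itga3 and Itga6 by 1.50 and 1.21, and the cytolinker Dst by 0.99. Plec and Cd151 overlapped between the groups. Without basal array 1, basal array 2 or tumour 1 the count was 2, 3 and 3. Of 25 basement membrane and matrix genes 6 fell, the laminin chains Lama1 (-2.41) and Lamc1 (-1.64), Lamb1, which fell by 2.00, and the collagens Col7a1 (-2.18), Col4a6 (-1.62) and Col4a5 (-1.39), while Col8a1 rose by 2.44. The matrix count lower was 2 without either basal array or tumour 2 and 4 without tumour 1. The integrin genes Itga9 and Itga8 fell (-3.52 and -2.19), and Itgb6, a subunit of an epithelial integrin that activates TGF-beta, rose by 2.29. The aggrecan-cleaving proteases Adamts1 and Adamts5 fell by 3.54 and 3.02, the only calls among 18 matrix proteases and inhibitors, and both were called without each array. Itga8 and Itgb6 were not called without either basal array, nor Itga8 without tumour 2, nor Col8a1 without basal array 2.

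The largest fall of any gene was that of Lgr5 (14160), a receptor for R-spondins that raises Wnt signalling and marks stem cells in several epithelia. It was at 8.42 and 9.14 in K5-PIK basal cells and at 3.37, 2.93 and 3.15 in the tumours, where the lowest 40% of values on each array ends at 3.89 to 3.99. No tumour came near either basal array, and the fall of 5.63 (SE 0.36, adjusted p = 1.29e-08) was called without each array. Of 25 Wnt pathway genes 12 fell and 3 rose (median -0.89). The receptors Fzd7, Fzd1 and Fzd8 fell by 2.62, 1.68 and 1.65 and Lgr4 by 1.90. Among ligands Wnt10a fell by 3.40, from 7.34 and 7.10 to 4.06, 3.58 and 3.82, and Wnt11 by 1.80. Secreted inhibitors fell as well, Wif1 (-3.98), Dkk3 as given above and Sfrp1 (-2.24), as did the feedback genes Znrf3 (-0.77) and Nkd1 (-0.60). The 3 that rose were ligands: Wnt7b by 3.06, Wnt4, a mediator of progesterone, by 2.42, and Wnt5b by 1.96. Without basal array 1 or 2 the count lower was 6, and the count higher 2 and 1. Lgr5, Wnt10a, Fzd7, Wnt11, Dkk3 and Wnt7b stayed called without each array.

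The TGF-beta, activin and BMP pathway had 12 genes lower and 2 higher of 25 (median -0.23). The extracellular regulators Fst (follistatin, an activin trap), Ltbp2 and Ltbp4 fell (-3.38, -3.28 and -2.43), as did the ligand Bmp7 (-2.61). The receptors Tgfbr3, Acvr2a, Tgfbr1 and Acvr1 fell by 2.80, 1.47, 1.46 and 0.73, whereas the type II receptor Tgfbr2 rose by 0.76. Inhibitory Smad6 and Smad7 and the target Id2 fell by 1.78, 1.26 and 1.42, Fstl3 by 1.07, and the latency protein gene Ltbp1 rose by 1.76. Ltbp2, Tgfbr3, Acvr2a and Smad6 stayed called without each array. The count lower was 4, 7, 8 and 8 without basal arrays 1 and 2 and tumours 1 and 2, and 0 or 1 genes were higher without any of the 5.

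Luminal genes were higher. Of 18 luminal epithelial genes 9 rose, none fell, all 18 differences were positive and the median was 1.74. Krt7 (110310), a keratin of simple epithelium, was at 10.15, 10.74 and 10.79 in the tumours and at 6.31 and 6.25 in the basal cells. Every tumour lay above both, and Krt7 rose by 4.28 (SE 0.61, adjusted p = 0.000136). Krt18 and Krt19 rose by 1.41 and 2.39. Krt8, the partner of keratin 18, was at 11.74, 11.83 and 11.79 against 11.34 and 11.03, a difference of 0.60 that was not called (SE 0.28, adjusted p = 0.144; 0.0445 in the fit on 11 arrays). The ETS factor gene Ehf rose by 3.27, Spint1, a membrane protease inhibitor, by 2.97, and the mucin gene Muc1 by 2.66. The count was 3 without basal array 2, which was below basal array 1 for Cldn3 (7.47 against 8.62), Cldn7 (7.28 against 8.99) and Muc1 (5.65 against 7.31). Krt7 and Spint1 stayed called without each array, as did the claudin gene Cldn4 described below, and Krt18 and Krt19 did not without basal array 2 (adjusted p = 0.0898 and 0.0516).

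Both luminal subtypes were represented among the genes that rose. Of 10 hormone-sensing luminal genes 5 rose and none fell. Foxa1 (15375), a pioneer factor for the oestrogen receptor, was at 3.76 and 3.72 in the basal cells, below the 40th percentile of their arrays, and at 7.36, 7.74 and 8.11 in the tumours. It rose by 3.99 (SE 0.91, adjusted p = 0.00545) and was called without each array. Prom1 rose by 3.70, the transcriptional co-regulator Cited1 by 3.38, Wnt4 as given above and the homeobox gene Msx2 by 1.32. The receptors were not called: Esr1 was at 8.98, 9.50 and 9.32 against 8.49 and 8.20 (adjusted p = 0.207; 0.0343 in the fit on 5 arrays), and Pgr at 7.15, 6.52 and 8.04 against 6.17 and 6.46 (adjusted p = 0.49). Of 10 luminal progenitor genes 4 rose. Elf5, the ETS factor of alveolar progenitors, was at 7.76, 7.14 and 7.23 against 4.53 and 4.61, a rise of 2.81 (adjusted p = 0.0199; 0.118, 0.094 and 0.0598 without basal array 1, basal array 2 or tumour 1). Aldh1a3, a retinaldehyde dehydrogenase, rose by 2.79, Cd14 by 2.60 and the stem cell factor receptor Kit by 2.32. The hormone-sensing count was 3 and 2 without basal arrays 1 and 2, and the progenitor count 1 and 0, and 2 without tumour 2.

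Tight junction genes, which seal the luminal surface, had the largest median of the 36 lists. Of 12 tested 9 rose, none fell, and the median was 2.78. Cldn4 was at 11.62, 11.92 and 11.65 against 9.14 and 8.21, and Cldn1 at 7.88, 8.68 and 7.63 against 5.14 and 4.63. The claudins Cldn1, Cldn4, Cldn7 and Cldn3 rose by 3.18, 3.05, 2.81 and 2.80, occludin (Ocln) by 2.99, and tricellulin (Marveld2) by 2.87. The junction plaque genes Cgn and Tjp3 rose by 2.76 and 1.84 and Marveld3 by 2.12. Tjp1, F11r and Cldn8 overlapped between the groups. Without basal array 2, 4 of the 12 were called, and 8 or 9 without any of the others.

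**Figure D2:**
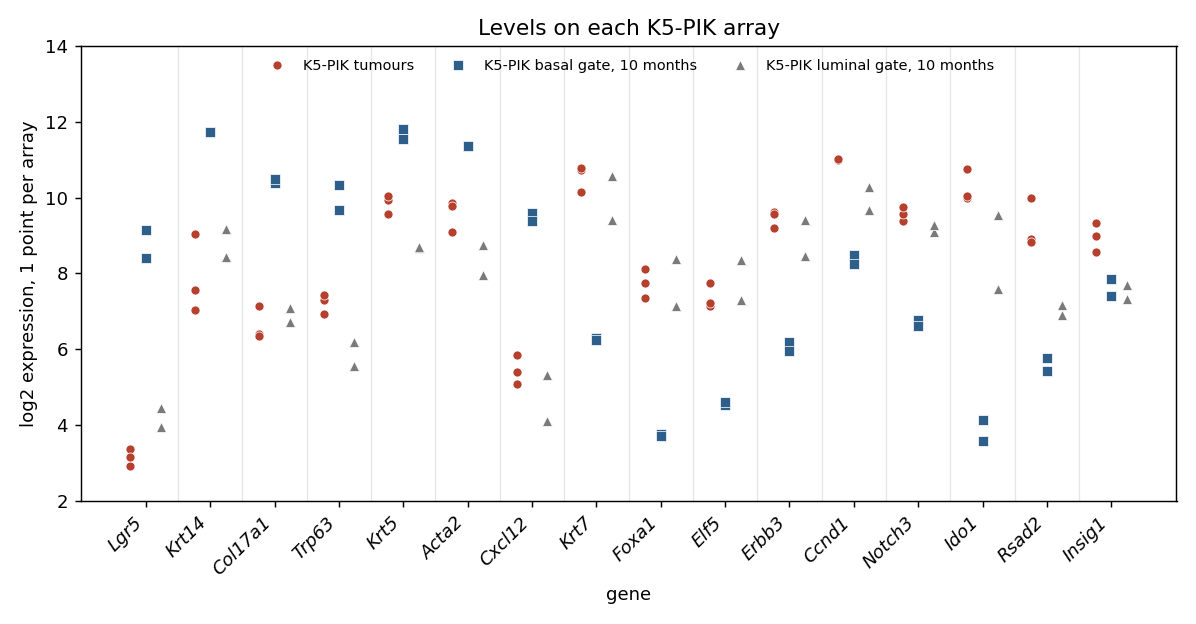
Log2 expression of 16 genes on each K5-PIK array, 1 point per array, with tumours as circles, basal-gate cells as squares and luminal-gate cells as triangles. Tumours and basal cells do not overlap for any gene shown. The tumours lie below both K5-PIK luminal arrays for Lgr5 and above both for Krt5, Acta2 and Trp63.

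The shift was also read over the genes that distinguish normal basal from luminal cells, which were chosen on YFP arrays outside the comparison. Of 568 genes at least 2-fold higher in YFP basal than luminal cells at 8 weeks, 339 (59.7%) were lower in the tumours and 2 higher, against 9.4% lower over all genes. Of 940 genes higher in YFP luminal cells, 406 (43.2%) were higher in the tumours and 1 was lower, against 7.88% higher over all genes. On a scale with normal luminal cells at 0 and normal basal cells at 1, the mean of the basal-high genes was at 0.30, 0.28 and 0.42 in the tumours and at 1.05 and 1.00 in the K5-PIK basal cells. On the reverse scale, with normal luminal cells at 1, the luminal-high genes were at 0.55, 0.68 and 0.61 in the tumours and at -0.04 and 0.05 in the basal cells. The tumours thus lay between the normal lineages on both scales and did not overlap the basal cells. Such lineage genes made up 11% of all genes tested. With the sets defined at 10 months (19.7% of genes), 499 of 1062 basal-high genes (47.0%) were lower and 608 of 1634 luminal-high genes (37.2%) were higher. An exact test of 3 arrays against 2 cannot give a p below 0.1, and none is given.

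**Figure D3:**
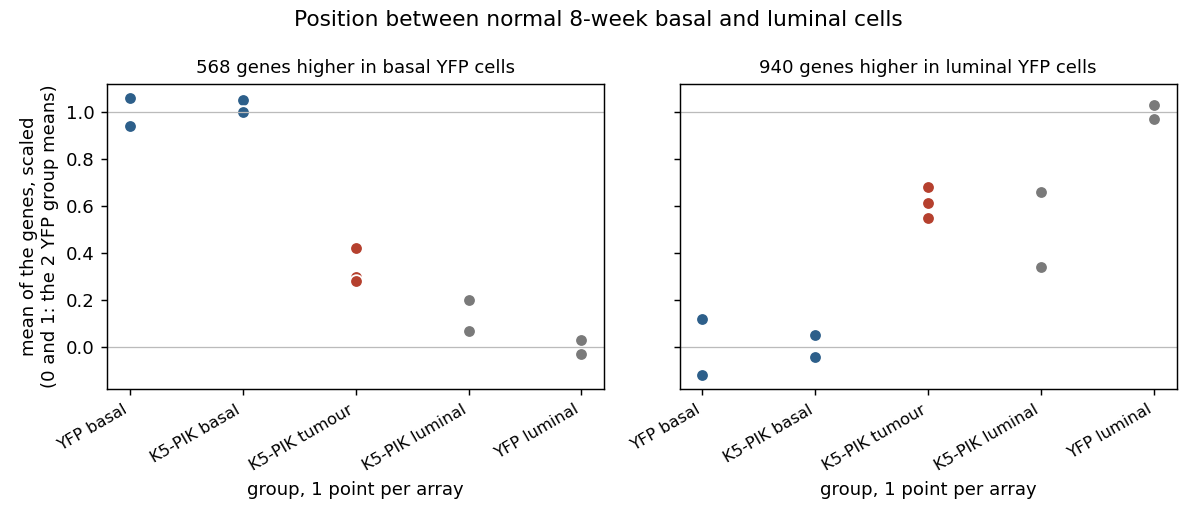
Mean of 568 basal-high genes (left) and 940 luminal-high genes (right) on each array, scaled between the YFP basal and YFP luminal means at 8 weeks, with 1 at the lineage in which the genes are high. Tumour points run from 0.28 to 0.42 on the left and from 0.55 to 0.68 on the right, apart from the K5-PIK basal points in both panels.

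Of 18 milk and milk fat globule genes 1 rose, the lipid droplet gene Plin2 (by 1.04), and none fell. The share called was 5.56%, against 17.3% of all genes tested. The groups overlapped for 11, and the tumours lay above both basal arrays for 6 of the 18, where 22.8% of all genes tested did so. Plin2 was not called without either basal array. Btn1a1, a butyrophilin of the milk fat globule, was at 9.60, 9.44 and 9.60 against 7.71 and 6.87, a difference of 2.26 that was not called (adjusted p = 0.179). Lalba, Csn3, Trf and Mfge8 also did not overlap, with differences of 1.53, 1.22, 0.39 and 0.35 that were not called. Csn2, beta-casein, was at 3.86, 5.71 and 4.30 against 6.50 and 4.47 (adjusted p = 0.782). Of 22 squamous genes 3 rose and 2 fell, so that 22.7% were called against 17.3% of all genes tested. Ly6d was at 9.65, 10.53 and 10.69 against 6.66 and 6.91, a rise of 3.50, and the keratins Krt4 and Krt6a rose by 3.37 and 2.77. Krt6a was higher in the tumours (8.59, 9.97 and 9.65) than the K5-PIK luminal mean of 6.53, a difference that was not called (adjusted p = 0.0777). Normal YFP luminal cells at 10 months had Krt6a at 10.15 and 10.53, above every tumour. They had Ly6d at 10.24 and 10.55 and Krt4 at 7.70 and 7.44, each within the range of the tumours. Loricrin (Lor) and Krt13, both of the cornified or stratified layers, fell by 1.55 and 0.63. Without basal array 2, only Ly6d of the 3 that rose was called.

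The targeted gene was slightly lower. Pik3ca was at 7.30, 7.48 and 7.21 in the tumours and at 7.75 and 8.10 in the basal cells, a difference of -0.59 (SE 0.16, adjusted p = 0.0178). It did not pass without basal array 2 (adjusted p = 0.221) or tumour 3 (adjusted p = 0.0561), in the fit on 5 arrays (0.102), and with the mean of the probe sets (0.185), where the difference was -0.27. The sources used here do not say whether the probe set reads the mutant transcript. Of 24 PI3-kinase and AKT components 3 fell and 1 rose, so that 16.7% were called, near the 17.3% of all genes tested. Igf1r, the IGF-1 receptor, fell from 7.82 and 7.74 to 5.63, 6.13 and 6.26 (by 1.78, called without each array). The AKT phosphatase gene Phlpp2 fell by 1.03, and Tsc1, an inhibitor of mTORC1, rose by 0.88. In the fit on the 5 arrays 1 of the 24 was lower and 2 were higher, and Tsc1 lost the call without any 1 of the arrays. Among 19 FOXO factors and FOXO-induced genes, whose transcription AKT restrains, 1 was called. It was Pdk4, a kinase that blocks entry of pyruvate into mitochondria, at 3.99, 5.85 and 4.73 against 9.44 and 8.59, a fall of 4.16 (adjusted p = 0.00958; 0.102 without basal array 1). Pdk4 was high in the K5-PIK luminal cells too, at 8.74 and 8.98.

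Receptors of the EGF family moved in both directions. Erbb3, the kinase-poor partner that couples to PI3-kinase, was at 9.21, 9.62 and 9.57 in the tumours against 6.18 and 5.96, a rise of 3.40 (SE 0.54, adjusted p = 0.000333) called without each array. Erbb2 rose by 0.99 and the ligand betacellulin (Btc) by 1.58, while Egfr fell by 1.34 and Lrig1, which promotes its degradation, by 1.09. Negative feedback genes of the ERK pathway were lower for 4 of 13 and higher for 1. Spred1, Spry1, Dusp6 and Spred2 fell by 1.88, 1.83, 1.21 and 0.95, and the phosphatase gene Dusp4 rose by 1.93. Without basal array 1 or 2 the ERK count lower was 2. The EGF family count lower was 0 without basal array 1 and the count higher 1 without basal array 2. Erbb2, Lrig1 and Spry1 each lost the call without at least 4 of the 5 arrays.

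Cyclin D1 was the member of the cell cycle lists with the largest change. Ccnd1 was at 11.01, 11 and 11.01 in the tumours and at 8.48 and 8.26 in the basal cells. The tumours hardly differed from each other and all lay above both basal arrays, and Ccnd1 rose by 2.63 (SE 0.34, adjusted p = 4.81e-05), called without each array. Proliferation genes as a whole were not called. Of 22 mitosis genes none rose and 1 fell, Mybl2 (by 1.19), with a median difference of 0.39. Mki67 was at 5.92, 4.25 and 5.36 against 4.96 and 4.59 (adjusted p = 0.768), with tumour 2 below both basal arrays. Of 22 DNA replication genes Ccnd1 and Mcm2 (by 1.50, a helicase subunit) rose and Pcna fell by 0.74, so that 13.6% were called against 17.3% of all genes. The call for Mcm2 was lost without 4 of the 5 arrays, and that for Pcna without basal array 1 or tumour 1. Rbl2, the pocket protein p130 that holds cells in quiescence, fell from 6.77 and 6.85 to 4.39, 4.97 and 4.87 (by 2.07, adjusted p = 3.66e-05), and the CDK inhibitor gene Cdkn2c rose by 0.91 (adjusted p = 0.0491; up to 0.355, and lost without 4 of the 5 arrays). Rbl2 stayed called without each array, and Mybl2 did not without basal array 2 or tumour 2. Normal YFP basal cells at 10 months had Rbl2 at 4.73 and 5.39, below the K5-PIK basal cells, and K5-PIK luminal cells at 5.73 and 5.65. Of 18 ribosome biogenesis genes 6 fell and none rose (median -0.66): Ncl, Nop58, Odc1, Nolc1, Myc and Mycn (-1.99, -1.59, -1.56, -1.24, -1.02 and -0.72). Myc was at 9.52, 9.84 and 9.82 against 10.73 and 10.76. That count was 1 without basal array 1 and 3 without basal array 2 or tumour 1, and Nop58, a nucleolar protein, stayed called throughout.

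Lipid synthesis genes were higher. Of 19 sterol and fatty acid genes 7 rose and none fell (median 0.48): the sterol enzymes Dhcr7, Fdps and Idi1 by 2.15, 1.78 and 1.29, the desaturase Scd1 by 1.77, the elongase Elovl6 by 1.70, Insig1, a sterol-induced brake on the pathway, by 1.34, and malic enzyme (Me1) by 1.25. Dhcr7 was at 8.18, 8.35 and 7.79 against 6.13 and 5.78. Dhcr7, Fdps and Elovl6 stayed called without each array, and the count was 4, 3, 4 and 4 without basal arrays 1 and 2 and tumours 1 and 2. Of 15 glycolysis genes 1 rose, Tpi1 (by 1.09), and Gapdh and Ldha overlapped. Of 14 hypoxia genes Vegfa fell by 1.35 and none rose. Of 27 oxidative phosphorylation genes 26 had positive differences with a median of 0.36, and 3 were called: Sdha, Ndufv2 and Cox5a, by 0.91, 0.83 and 0.81, with a count of 1 without either basal array. The share called in oxidative phosphorylation was 11.1%, against 17.3% of all genes tested. In the list of ATF4 targets and amino acid supply 1 of 16 was called, the glutamine transporter gene Slc1a5 (-1.87, with basal arrays at 8.63 and 6.70). Vegfa and Slc1a5 each lost the call without 4 of the 5 arrays.

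Interferon-induced genes were higher for 6 of 20, with none lower and a median of 0.62. Rsad2, or viperin, an antiviral enzyme, was at 8.91, 8.82 and 9.98 in the tumours and at 5.76 and 5.42 in the basal cells. It rose by 3.65 (SE 0.71, adjusted p = 0.00181), with tumour 3 highest. Normal YFP basal cells at 10 months were at 7.23 and 7.93, between the tumours and the K5-PIK basal cells. Rtp4 rose by 2.90, Usp18, which limits interferon signalling, by 2.34, the RNA sensor gene Ifih1 by 1.90, Oasl2 by 1.88 and Xaf1 by 1.67. Rsad2 and Rtp4 stayed called without each array, and the count was 2, 3, 4, 4 and 4 without basal arrays 1 and 2 and tumours 1, 2 and 3. The immunoproteasome genes Psmb8 and Psmb10 rose by 1.84 and 1.44, whereas the class I heavy chains H2-K1 and H2-D1 overlapped between the groups. RefSeq promoters on GRCm38.p6 (250 bases before to 50 after the start) were at hand for 4 of the 6 interferon genes and were searched for the interferon-stimulated response element, read as 2 GAAA words with any 2 bases between them on either strand. This search was chosen after the values were seen. The element was present in 2 of the 4 genes that rose, in 10 of the 15 tested interferon genes with a promoter (66.7%), and in 3.99% of all 27025 genes with a promoter. Both are shown 5′ to 3′ on the gene's strand, with the matched word in capitals. They are Rsad2 at chr12:26456403-26456702, minus strand, with the match beginning at position -120 from the start, and Ifih1 at chr2:62646206-62646505, minus strand, with the match beginning at position 32.
Rsad2: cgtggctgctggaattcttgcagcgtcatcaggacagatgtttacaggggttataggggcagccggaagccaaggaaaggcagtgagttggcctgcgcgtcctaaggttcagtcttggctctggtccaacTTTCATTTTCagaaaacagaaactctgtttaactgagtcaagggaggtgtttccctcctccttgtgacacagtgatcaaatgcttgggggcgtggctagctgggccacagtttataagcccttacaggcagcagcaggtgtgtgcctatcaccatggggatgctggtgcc
Ifih1: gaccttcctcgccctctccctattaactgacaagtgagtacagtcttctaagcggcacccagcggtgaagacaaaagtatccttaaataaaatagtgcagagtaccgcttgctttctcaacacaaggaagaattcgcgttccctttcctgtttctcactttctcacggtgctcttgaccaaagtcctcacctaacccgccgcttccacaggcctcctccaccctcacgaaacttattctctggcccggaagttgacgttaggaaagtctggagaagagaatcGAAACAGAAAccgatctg
A match is a description of these letters and not a binding site. For lipid genes the sterol element word TCACNCCAC, searched in the same way after the values were seen, was in none of 5 promoter-matched genes that rose and in 1.44% of genes. For the cell cycle genes the word TTTGAA was found in Mcm2 and not in Pcna or Mybl2, in 13 of 17 tested mitosis genes (76.5%) and 2 of 17 tested DNA replication genes (11.8%), and in 20.2% of genes. The E2F words TTCCCGC or TTTGGCG were in none of those 3 and none of the 17 mitosis genes, in 9 of the 17 DNA replication genes (52.9%), and in 6.83% of genes.

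Of 22 cytokines and chemokines 6 rose and 2 fell. Il33, an epithelial alarmin, was at 7.57, 6.82 and 6.54 against 3.25 and 3.09, a rise of 3.81, and was at 3.43 on average in the K5-PIK luminal cells. Cxcl17 rose by 4.04, the granulocyte factor Csf3 by 2.59, Lif by 2.38, and the neutrophil chemokines Cxcl1 and Cxcl2 by 1.63 and 1.53. Cxcl12, which attracts cells bearing CXCR4, fell from 9.60 and 9.37 to 5.09, 5.40 and 5.86 (by 4.03), and Ccl7 fell by 2.58. Ackr4, a receptor that scavenges chemokines, fell by 4.61. Cxcl17 and Ackr4 stayed called without each array. The count higher was 1 without basal array 2 and 4 without tumour 2, and Cxcl12 was not called without basal array 1 or 2 (adjusted p at most 0.0903), nor Ccl7 without basal array 1 (0.0612).

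The largest rises lay outside these lists for the most part. Ido1 (15930), which degrades tryptophan, was at 10.00, 10.04 and 10.76 in the tumours and at 3.59 and 4.13 in the basal cells, the largest difference in that direction. It rose by 6.40 (SE 1.32, adjusted p = 0.00257) and was called without each array. In the K5-PIK luminal cells Ido1 was at 7.59 and 9.53. AW112010, an interferon-inducible transcript, rose by 5.80, and Arg1, which degrades arginine, by 4.58, from 4.81 and 5.27 to 9.16, 9.46 and 10.24. The acute-phase genes Fgb (a fibrinogen chain) and Hp (haptoglobin) rose by 5.69 and 4.17. Fgb was at 11.03, 11.23 and 10.69 against 4.58 and 6.01, and in the K5-PIK luminal cells at 5.69 and 9.64. Normal YFP luminal cells at 10 months had Fgb at 10.59 and 10.89, AW112010 at 10.63 and 11.12 and Hp at 10.21 and 10.26. These levels were near those of the tumours (AW112010 at 10.73, 11.19 and 11.06, Hp at 11.40, 9.71 and 9.92). In the same normal cells Arg1 (8.50 and 8.63), Ido1 (7.97 and 8.80), Smim38 (6.08 and 7.66) and Cstdc2 (4.59 on both arrays) were below every tumour. Upk3a, a uroplakin of urothelium, rose by 4.11 and the sodium pump regulator Fxyd2 by 4.07. Smim38, Fam25c, Tlcd4, Cstdc2 and Ctsr rose by 5.61, 4.53, 4.20, 4.11 and 3.91. Of the 15 largest rises, AW112010, Arg1, Krt7, Hp, Cxcl17, Foxa1 and Ido1 stayed called without each array, and the other 8 were lost at least without basal array 1. Among the largest falls, Tenm2, a teneurin adhesion receptor, was at 10.27 and 10.32 against 5.03, 4.48 and 5.15 (a fall of 5.41). The GDNF family receptors Gfra2 and Gfra1 fell by 4.35 and 4.26, the protease Adamts18 by 3.98, the formin Fhod3 by 3.81, Speer4cos by 3.80, and the collagen receptor Antxr1 by 3.74. Tumour 3 was the highest of the tumours for Gfra1 (5.65), Gfra2 (7.70) and Antxr1 (6.41). Gfra1 was not called without basal array 1 (adjusted p = 0.0705), nor Antxr1 without basal array 1 or 2 (at most 0.0777).

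**Figure D4:**
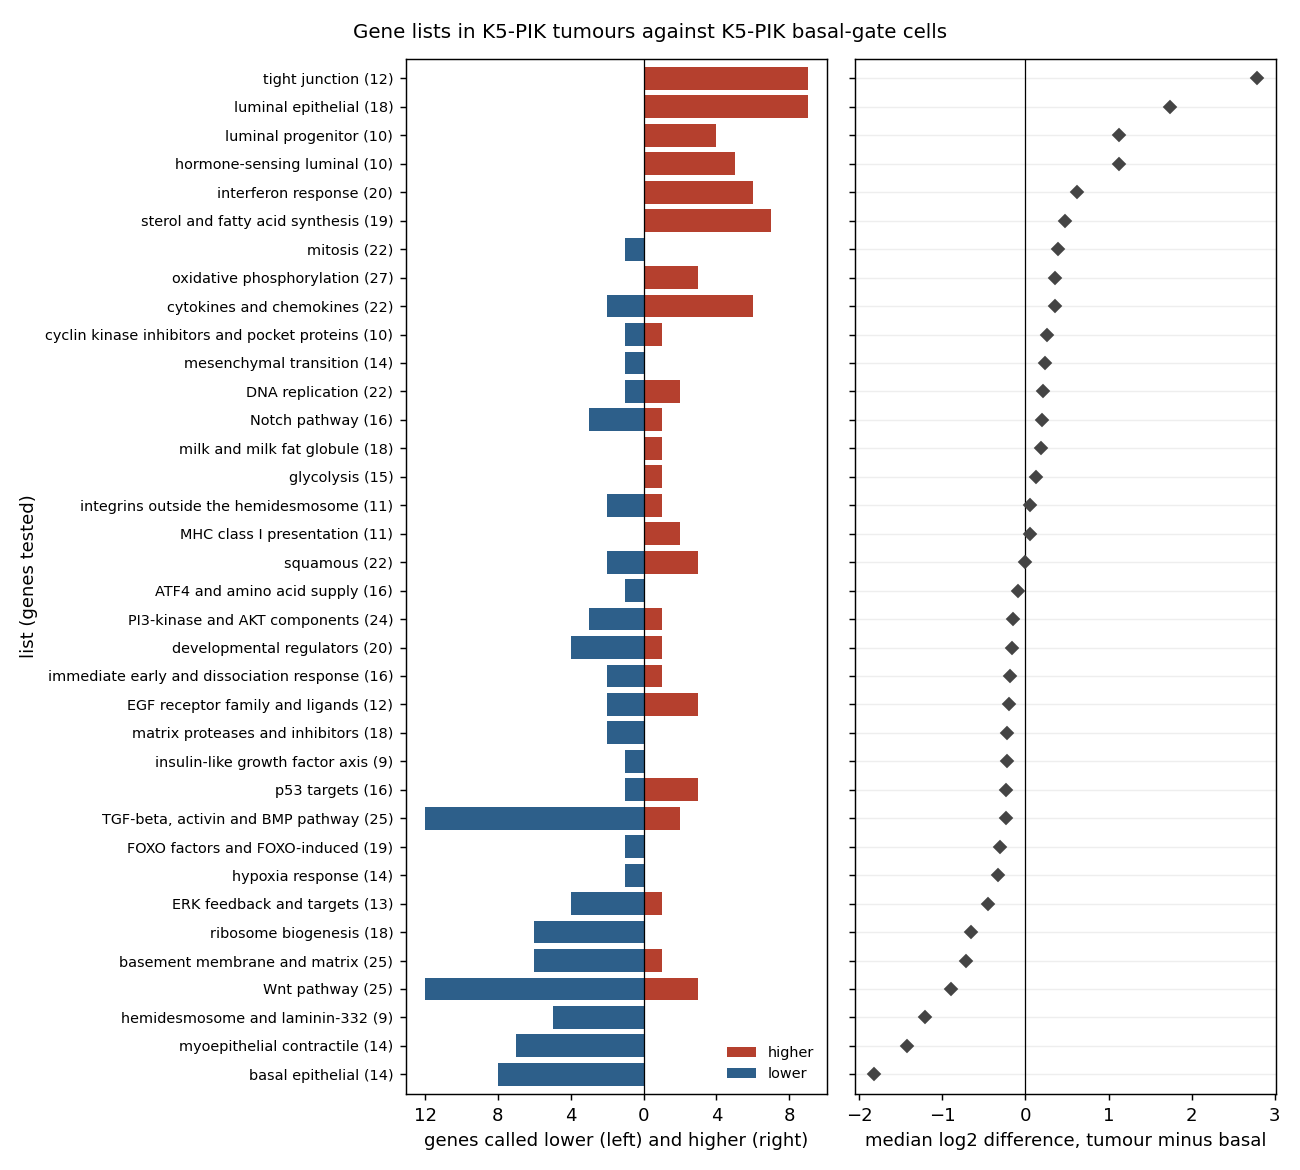
Number of genes called lower and higher in K5-PIK tumours (left) and the median log2 difference (right) for 36 gene lists, with the genes tested in parentheses. Tight junction and luminal lists stand at the top, with medians of 2.78 and 1.74, and the contractile and basal lists at the bottom, with -1.42 and -1.82.

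Notch genes, which favour luminal fate when active, were mixed. Notch3, a receptor of luminal cells and of mural cells, was at 9.37, 9.56 and 9.75 against 6.77 and 6.61, a rise of 2.87 (adjusted p = 0.00144) called without each array. The ligands Dll1 and Jag1 and the nuclear mediator Rbpj fell by 2.45, 1.47 and 0.94. Without basal array 1 the count lower was 1. The targets Nrarp, Heyl and Hey2 had differences of 1.66, 1.49 and 1.05 that were not called (adjusted p = 0.167, 0.053 and 0.291). Among 16 p53 targets Trp53inp1, Aen and Polk rose by 2.20, 1.60 and 1.25 and Perp, a desmosome-linked gene, fell by 0.95. Aen was at 8.83, 9.17 and 8.83 in the tumours against 7.64 and 7.05, and normal YFP basal cells at 10 months were above both, at 9.37 and 9.71. Of the p53 targets that rose only Aen stayed called without each array, and Perp lost the call without 4 of the 5 arrays. Cdkn1a was at 10.73, 11.11 and 10.99 against 11.51 and 11.14 and was not called. Of 20 developmental transcription regulators 4 fell, 1 rose and 15 were not called. Id4, Runx1, Bcl11b and Sox4 fell by 1.64, 1.17, 1.07 and 0.77, and Msx2, given above, rose (adjusted p = 0.11 without basal array 2). The count lower was 0 without basal array 1, 1 without basal array 2 and 2 without any of the tumours. Of 16 immediate early genes, which rise during tissue dissociation, Socs3 and Ier2 fell by 2.07 and 1.08 and Hspa1b rose by 1.07, with Fos and Jun overlapping. Socs3 was not called without basal array 2 (adjusted p = 0.0695), Hspa1b without either basal array (at most 0.0746), or Ier2 without 4 of the 5 arrays (at most 0.199).

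Markers of other cell types were set beside these results. Ptprc, the pan-leukocyte marker, was at 3.10, 3.54 and 4.26 in the tumours and at 3.50 and 3.20 in the basal cells, within the lowest 40% of its array on 4 of the 5. None of 18 immune markers rose, Cd68 and Cd79a fell by 1.35 and 1.05 (neither without basal array 1, adjusted p = 0.123 and 0.052), and the list mean was 5.35 to 5.76 in tumours against 5.21 to 5.64. None of 14 endothelial markers was called (means of 5.41 to 5.75 against 4.61 to 5.48). The defining endothelial markers were measured in both groups, Pecam1 at 6.10, 6.24 and 6.84 against 7.03 and 5.30 and Cdh5 at 7.79, 7.19 and 8.14 against 7.28 and 5.59. None of 11 fibroblast markers was called. Their mean was 6.27, 6.23 and 7.74 in tumours 1, 2 and 3 and 6.59 and 5.50 in the basal cells, with Col1a1 at 9.26, 8.34 and 10.77 against 9.11 and 6.61 and Pdgfra at 3.12 to 3.41 in all 5. Of 7 pericyte markers Notch3, Kcnj8 and Higd1b rose and Mcam fell, and the defining Pdgfrb and Rgs5 were not called. Without basal array 1 only Notch3 of these 4 was called. The pericyte mean was 6.10, 6.01 and 6.65 against 5.29 and 5.18. Adipoq, the defining fat cell gene, was not tested, and Ckm of skeletal muscle was at 4.27 to 4.53 against 4.38 to 4.61. Of 3 Schwann cell genes tested only Erbb3 was called. The part of these cells in the results was not tested, beyond the covariate fits below. With the mean of the immune, endothelial or fibroblast markers as a covariate, 2569, 2264 and 2684 genes were called, of which 2324, 2052 and 2254 were among the 2361.

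**Figure D5:**
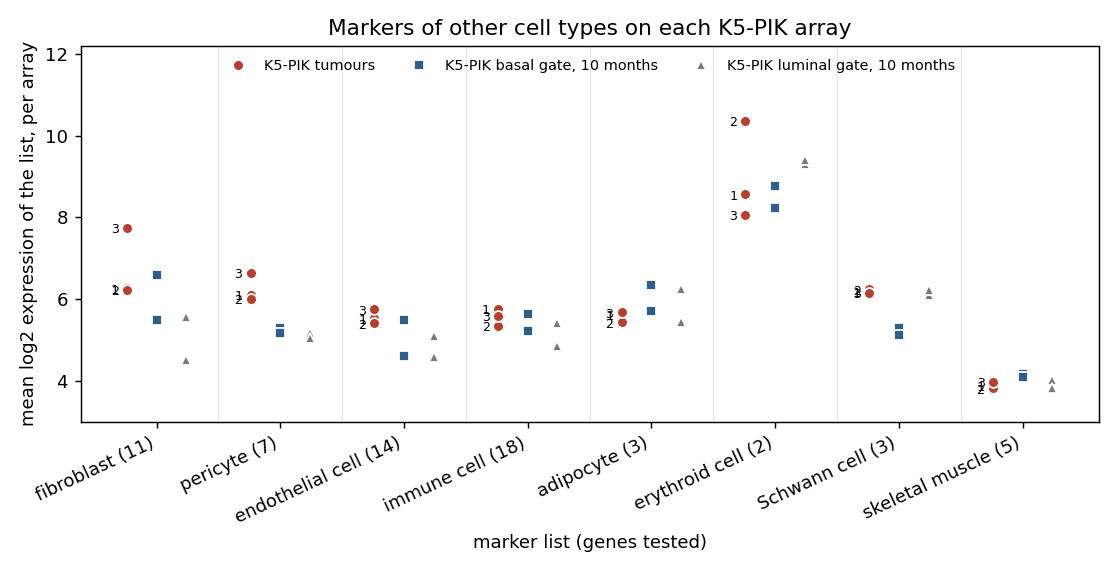
Mean log2 expression of 8 marker lists of other cell types on each K5-PIK array, with tumours numbered 1 to 3. Tumour 3 is highest for fibroblast (7.74) and pericyte (6.65) markers and tumour 2 for erythroid markers (10.37). Immune and endothelial means overlap between tumours and basal cells.

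Taken pair by pair, the tumours differed from each other slightly more than the basal arrays did in the median gene. The median difference over genes was 0.27, 0.29 and 0.27 for the tumour pairs and 0.24 for the basal pair. The range, which is wider over 3 arrays than over 2 by construction, exceeded 2 for 133 genes in the tumours and for 22 in the basal cells. Correlations over all tested genes were 0.963 to 0.971 among tumours and 0.976 for the basal pair. They were 0.900 to 0.907 between tumours and basal cells, and 0.931 to 0.963 between tumours and K5-PIK luminal cells. These are values across genes, which are not independent. In 57 of the 133 genes tumour 3 stood above the other tumours, which lay closer to each other. The widest was Aoc1, a diamine oxidase, at 3.35, 3.11 and 9.95, and others were Cdcp3 at 4.99, 5.22 and 9.93, and Crabp1, a retinoic acid binding protein, at 4.58, 5.32 and 8.56. Tumour 2 stood highest for Gsta2, a glutathione transferase (4.55, 9.17 and 5.17), Ctsj (3.14, 7.66 and 3.14) and Ufsp1 (4.55, 8.34 and 5.43). Tumour 1 lacked the level of the others for Ctsr (4.75, 8.63 and 8.64), Ctse (3.38, 7.37 and 6.10) and Klk11 (3.95, 7.94 and 6.70). Cxcl15 was spread over all of them, at 4.95, 7.29 and 9.21. Tumour 3 also had the highest level of Fn1 (9.06, against 6.39 and 6.69) and Tnc (8.11, against 6.19 and 5.62), both matrix genes of the mesenchymal list, in which 1 of 14 genes was called, Snai2.

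Set beside the K5-PIK luminal cells, the same tumours gave far shorter lists, and both comparisons share the tumour arrays. There were 87 genes called (0.637%), 33 higher and 54 lower in the tumours, against 2361 beside the basal cells. That count was 2 without luminal array 1, 247 without luminal array 2, and 32, 52 and 40 without tumours 1, 2 and 3. The luminal arrays differed from each other, for example for Ido1 and Fgb. None of the 13 genes followed throughout was called against the luminal cells.

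The step from mutant cells to tumour was then tested for a difference between the 2 Cre drivers. The K8 arm started from luminal-gate cells at 8 weeks, so driver, gate and time cannot be told apart. In it 341 genes were called (2.5%), and of the 1076 genes higher in K5-PIK tumours 5 were also higher there (0.465% of them and 4.39% of the 114 K8 genes), while 31 were lower. Of the 1285 lower genes 12 were lower in both (0.934%, and 5.29% of 227) and 30 were higher. Over all genes tested 0.834% were higher and 1.66% lower in the K8 arm. The shares that moved alike were below these, and the shares that moved in opposite directions were above them. The 2 arms share no array. The K8 count was 26 and 0 without K8-PIK luminal arrays 1 and 2. The difference between the steps was called for 2039 genes (14.9%; 7.27% with the K5 step higher and 7.66% with it lower), and for 1262 and 855 without those arrays and 1230 and 1101 without basal arrays 1 and 2. Lgr5 had a K5 step 5.64 below the K8 step (adjusted p = 2.33e-06). It was at 3.92 and 3.43 in K8-PIK luminal cells and at 2.98 to 4.39 in the K8-PIK tumours and at 4.46 and 3.96 in the K5-PIK luminal cells, all of them far below the K5-PIK basal cells. Mmp2, a gelatinase, had a K5 step that was not called (-2.10, adjusted p = 0.167) and a K8 step of 3.59 (adjusted p = 0.0389), from 5.59 and 4.56 to a median of 9.37. Klk10 rose by 2.93 in the K5 step and fell by 4.07 in the K8 step, the largest difference of all (7.00, adjusted p = 0.0016). Its K5 rise (adjusted p = 0.0451) was not called without basal array 1 or 2 or tumour 2 or 3 (at most 0.217).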

How the data were processed

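Expression was measured on 28 Affymetrix arrays of sorted mouse mammary cells. The authors deposited log2 expression values per probe set, made with R 2.14.0 per the submitters' processing notes. The background correction and normalization are not given in the sources used here, and the files name no genome build. Probe sets with 1 gene symbol in the platform annotation were kept (28898 of 45141), and the probe set with the highest mean stood for its gene. Of 17097 genes, 13663 exceeded the 40th percentile of their array on at least 2 arrays and were tested. One mean per group was fitted to all 11 groups with limma 3.58.1 (lmFit and eBayes, R 4.3.3), so that the groups shared an estimate of the spread, and p-values were adjusted by Benjamini-Hochberg over all genes tested. The 11 groups included the K8-PIKp53 tumours and the K8-PIK basal-gate cells, which entered only the spread. On simulated data for this comparison with 13663 genes, 43% of genes changed by 1 log2 unit and 87% of those changed by 2 were recovered. Only 200 genes were changed there, far fewer than the 2361 called in the data. The Benjamini-Hochberg threshold was therefore stricter in the simulation, and these shares do not measure recovery in the data. The number of arrays limits the precision.

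The genes compared and the lists were chosen with earlier results of these data known, so lists are described by counts and medians without a test. The share called was below the 17.3% of all genes for the milk, mitosis, DNA replication, PI3-kinase and FOXO lists. It was also below for the glycolysis, hypoxia, oxidative phosphorylation, ATF4, mesenchymal, matrix protease and insulin-like growth factor lists. For class I presentation and immediate early genes it was 18.2% and 18.8%. Named genes were the 15 largest rises and 15 largest falls among called genes whose groups did not overlap, per list the called members that changed most (4 at most), and 13 genes given in every comparison (the target Pik3ca, the basal genes Krt5, Krt14, Trp63 and Acta2, the luminal genes Krt8, Krt18, Foxa1, Elf5, Kit, Esr1 and Pgr, and the proliferation gene Mki67). For the difference between the Cre drivers they were the 5 largest in each direction, and for the spread among tumours the 10 genes with the widest range. Further list members were named with their list. The alternatives were other sets of arrays, normalizations, filters, probe set rules and priors, array weights, marker means as covariates, a replicate block and leaving out each array.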

Additional observations from a re-analysis of the deposited data

Results flagged for a closer look

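The change from mutant cells to tumour differed between K5 and K8 mice for 2039 genes in limma, with Cre driver, gate and time not separable. Differences are given as the K5 step minus the K8 step in log2 units. Among keratins and lineage regulators it was -3.97 for Acta2, -3.61 for Trp63, -2.78 for Krt14, 1.10 for Krt8, 2.06 for Krt18, 3.55 for Elf5 and 4.33 for Foxa1. The largest negative differences were -5.69 for Mmp2, -5.64 for Antxr1, -5.64 for Lgr5, -5.56 for Tenm2 and -5.51 for Gfra1. The largest positive ones were 7.00 for Klk10, 6.99 for Ido1, 6.77 for AW112010, 6.34 for Fgb and 6.10 for Dmbt1, a mucosal scavenger receptor.

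In the 7 K8-PIK tumours 1 array stood apart from the others for 4 of the named genes. Its gap to the nearest array, as a share of the range, was 0.61 for AW112010, 0.67 for Elf5, 0.76 for Krt18 and 0.78 for Krt8. Chance flags about 1 in 20 groups. These arrays enter the spread behind every SE, and the K5-PIK tumours and basal cells are too few to be examined in this way.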

How the results depend on the processing

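The 2361 called genes became 2189 to 3089 under the settings that keep all 5 arrays, but 930 to 1975 without 1 array, and the 1386 genes past 2-fold became 776 to 1305. The replicate block gave 3089, of which 2217 were among the 2361. The labels name no source shared by equal replicate numbers, so the numbers were not taken as a pairing. Deviations from the group means had correlations of -0.114 and -0.106 between same-numbered tumour and basal samples. The deviations of 2 basal arrays mirror each other, so these values cannot decide on a pairing. Of 134 named genes that were called, 47 kept the call without each array, and 47 under every setting, and none changed sign. The lowest counts followed the loss of a basal array, which leaves 1. That array is then assumed to vary like the other groups. Against K5-PIK luminal cells, 87 became 290 with the replicate block, 47 with the mean of the probe sets, and 2 to 247 without 1 array. The K8 step went from 341 to 1215 with the block and to 26 and 0 without a K8-PIK luminal array, and the difference of steps from 2039 to 855 to 1847 without 1 array. Beside the count of 0 by limma, the same comparison with all arrays called 341. With lineage sets from 10 months the basal-high mean moved from 0.33 to 0.25 in tumours and from 1.02 to 0.78 in basal cells, and the luminal-high mean from 0.61 to 0.79 and from 0.01 to 0.27. The difference of steps for Mki67 turned from -0.67 to 0.40 without K8-PIK luminal array 1 (-1.74 to 0.40 over all left-out arrays, with an adjusted p of 0.853 at 0.40). The cause of these changes was not tested, apart from the fewer arrays. Signal near the array floor limits genes such as Lgr5 in tumours.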

Other observations

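Some of the genes that separated K5-PIK tumours from K5-PIK basal cells did not separate normal basal from luminal cells. Of 6975 tested genes with an unadjusted p of at least 0.05 between YFP basal and YFP luminal cells at both times, 523 were called, 168 higher and 355 lower in the tumours. All are smaller shares than over all genes tested, where 17.3% were called, 7.88% higher and 9.4% lower. This set was chosen after the data were seen, and a gene that missed the threshold in the normal cells is not shown to be equal there. Both tests used the same estimate of the spread, so a gene with a wide spread is less easily called in either. Mdk, the growth factor midkine, was at 6.86, 6.72 and 8.05 in the tumours against 10.33 and 10.50 and fell by 3.21 (adjusted p = 0.00475). Bdnf, a neurotrophin, was at 5.02, 4.73 and 4.71 against 7.97 and 7.89 and fell by 3.10 (adjusted p = 0.000333). Spon1, the matrix protein F-spondin, rose from 6.48 and 5.32 to 8.43, 8.15 and 9.26. Foxi1, a forkhead factor of ion-transporting cells, rose from 3.44 and 3.46 to 6.56, 6.30 and 6.11 (adjusted p = 0.014), a call lost without either basal array. The nuclear RNA Neat1 rose from 7.28 and 8.08 to 10.29, 10.11 and 10.42, a call lost without basal array 1 (adjusted p = 0.109). Its mean was 10.12 in normal basal and 9.31 in normal luminal cells. These genes were picked after their values were seen.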
